A study of Rattus norvegicus with 12 samples.

Results

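Osteopontin, the product of Spp1, and the receptors that bind it at the cell surface were examined in adult rat ventricular myocytes (ARVMs) in which the nuclear receptor NR4A2 was overexpressed. Spp1 was chosen by its mean FPKM, which rose strongly between the groups compared here, and its receptors were taken because their proteins bind osteopontin. The 9 genes named are Spp1, Cd44, and the integrin subunits Itgav, Itgb1, Itgb3, Itgb5, Itga4, Itga5, and Itga9, of which 7 were analysed among 17301 gene names. Itgav and Itga9 were not analysed here. Each of the 7 genes had 1 transcript in a locus of its own, and 6 of them were above 0 in all 12 samples. The exception was Itga4, listed at 0 in 2 samples.

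ARVMs came from hearts of male Sprague Dawley rats and were plated on dishes coated with laminin, itself an integrin ligand, in medium with the contraction inhibitor 2,3-butanedione monoxime. All cells were transduced at 50 MOI and kept for 48 h. The 6 Ad-GFP samples received an adenovirus encoding green fluorescent protein, and the 6 Ad-h-NR4A2 samples received one with the human NR4A2 open reading frame under the cytomegalovirus promoter. Samples of both groups carry the numbers 24 to 29, and same-numbered samples are called pairs below.

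Osteopontin is a secreted, acidic phosphoprotein of bone matrix that also acts as a matricellular signal in injured tissue. An RGD motif in the protein binds integrins made of the αv subunit with β1, β3, or β5, and α5β1, while a neighboring motif exposed by thrombin binds α4β1 and α9β1. CD44, the main hyaluronan receptor, also binds osteopontin. In the heart, osteopontin is known for low levels in healthy myocardium and high levels in hypertrophy, infarction, and inflammation, where myocytes, fibroblasts, and macrophages can make it.

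The 250 bases before the RefSeq gene start (GRCr8 build, strand of the gene) are shown for Spp1 (chr14:5619805-5620054, minus), for Ibsp, a gene of the same family (chr14:5757243-5757492, minus), and for the receptor genes called differentially expressed below, Cd44 (chr3:109699425-109699674, minus) and Itga5 (chr7:136381306-136381555, minus). They are shown because they adjoin the starts of the genes whose levels differed, and because NR4A receptors are known to bind DNA at short sites of this kind. Capitals mark AGGTCA, the core of the NR4A monomer site.

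Spp1: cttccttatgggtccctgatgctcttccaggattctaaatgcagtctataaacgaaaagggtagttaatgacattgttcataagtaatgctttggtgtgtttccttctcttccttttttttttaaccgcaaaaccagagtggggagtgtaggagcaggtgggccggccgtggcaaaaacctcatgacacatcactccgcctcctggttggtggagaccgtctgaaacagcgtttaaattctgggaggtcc
Ibsp: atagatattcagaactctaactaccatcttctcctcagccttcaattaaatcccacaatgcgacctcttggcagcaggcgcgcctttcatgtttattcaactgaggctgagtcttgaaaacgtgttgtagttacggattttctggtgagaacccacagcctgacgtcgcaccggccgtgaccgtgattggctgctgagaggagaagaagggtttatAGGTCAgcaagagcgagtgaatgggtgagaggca
Cd44: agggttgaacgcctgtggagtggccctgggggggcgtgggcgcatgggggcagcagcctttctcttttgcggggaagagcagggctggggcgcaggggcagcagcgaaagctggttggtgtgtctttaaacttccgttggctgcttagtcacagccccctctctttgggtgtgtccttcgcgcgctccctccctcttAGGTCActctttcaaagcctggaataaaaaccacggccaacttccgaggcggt
Itga5: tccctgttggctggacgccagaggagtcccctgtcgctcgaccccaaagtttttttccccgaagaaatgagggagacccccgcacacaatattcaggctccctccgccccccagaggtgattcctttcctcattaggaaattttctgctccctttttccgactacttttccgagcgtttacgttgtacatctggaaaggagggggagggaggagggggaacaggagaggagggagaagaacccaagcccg

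AGGTCA, which is also contained in each full NR4A monomer site (NBRE, AAAGGTCA), was found at bases -53 to -48 of Cd44 and at -34 to -29 of Ibsp, and in 14.1% of 33469 rat promoters searched on both strands. No copy of AGGTCA or of the NBRE was found in the Spp1 or Itga5 window, nor the AP-1 motif TGANTCA. The NBRE was in 1.24% and the AP-1 motif in 6.34% of all promoters. Promoters matched 6 of the 7 analysed genes, with none for Itgb3, and the windows of Itgb1, Itgb5, and Itga4 also held none of the 3 motifs. A match in these letters is a description of the sequence only.

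Expression is given as FPKM, the fragments on a transcript scaled to its length and to the fragments mapped in the sample, so that levels of different genes can be compared per length. The depth implied by low values was 18800000 to 28000000 fragments in the Ad-GFP group and 21600000 to 27300000 in the Ad-h-NR4A2 group. Nr4a2, the gene transduced, was examined as a check of the labels. It had 0.626 to 1.40 FPKM in Ad-GFP samples and 445 to 592 FPKM in Ad-h-NR4A2 samples, as far as human transgene fragments align to the rat transcript. Myocyte markers were high in all samples. The summed FPKM of Myh6, Myh7, Tnnt2, Tnni3, Actc1, Myl2, Myl3, Ryr2, Pln, and Tnnc1 was 40055 to 48338 in Ad-GFP samples and 35259 to 41482 in Ad-h-NR4A2 samples, and 7 of the 10 genes passed the test described below, all 7 lower with Ad-h-NR4A2, beside 40.9% of all genes that passed in either direction and 21.7% that passed as lower. With the limit on the ratio described below, Myh7, Ryr2, and Pln were called down, beside 7.24% of all genes tested. Their ratios of means were 0.563, 0.624, and 0.611. In such bulk samples, fewer cells of a type and less RNA per cell cannot be told apart.

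Spp1 (chromosome 14, 6653086 to 6658937, Rn5 build) was near the level of Cd44 or below it in control ARVMs and above every analysed receptor in ARVMs with Ad-h-NR4A2. In Ad-GFP samples 24 to 29, FPKM was 3.32, 6.56, 8.11, 5.60, 6.08, and 13.7. In Ad-h-NR4A2 samples 24 to 29, FPKM was 283, 776, 644, 1143, 525, and 586. The lowest sample with Ad-h-NR4A2 thus lay far above the highest with Ad-GFP, and sample number 24 was lowest in both groups. Mean FPKM was 7.23 ± 3.53 (SD, n = 6) and 659 ± 287 (SD, n = 6), a ratio of 91.2. Within pairs the ratio ranged from 42.8 to 204, with a median of 85.7. Fragments behind these values numbered 97 to 509 in single control samples and 8096 to 33057 with Ad-h-NR4A2. On the log2(FPKM + 0.1) scale the difference was 6.50 (SE 0.33), rank 3 of the rises among 10950 genes. No test is given for Spp1, since this contrast chose it. The difference was 6.30 to 6.72 when single samples were left out or the pseudocount, scale, or normalization was changed.

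**Figure D1:**
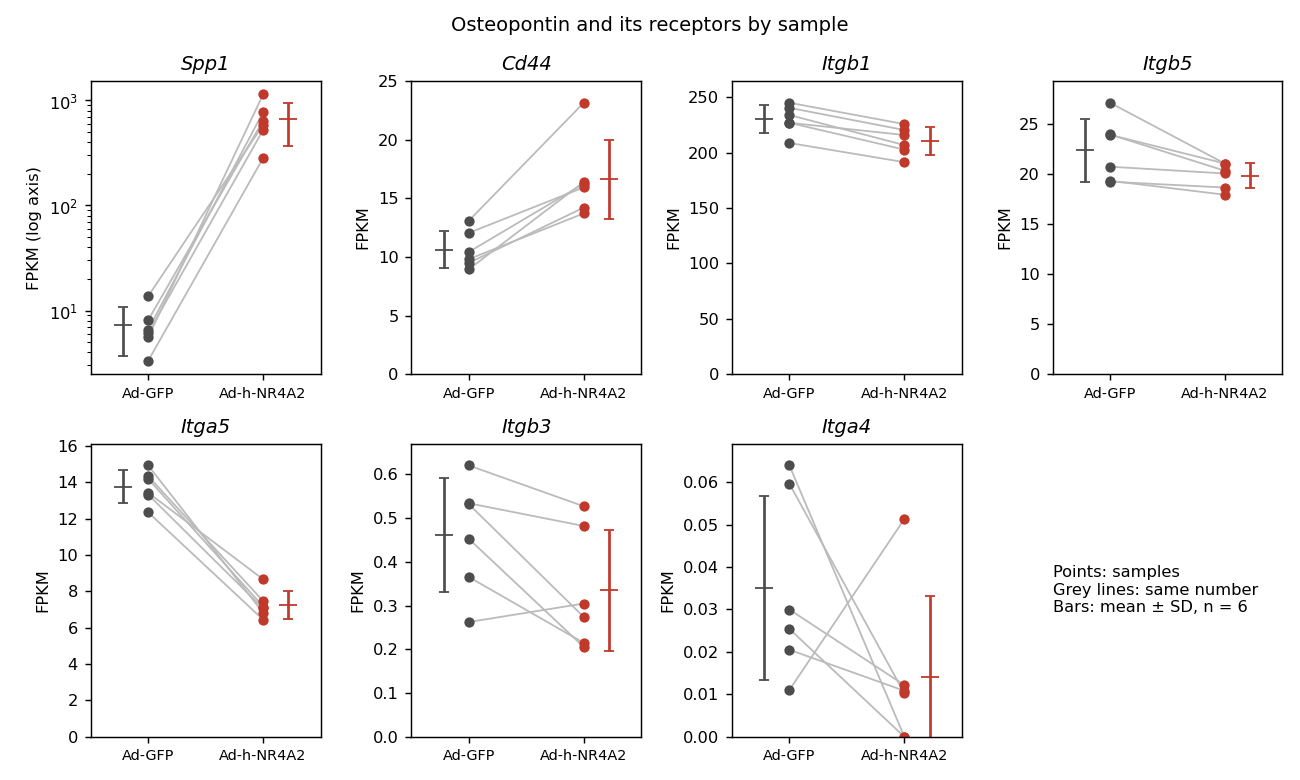
FPKM of Spp1 (log axis) and of its 6 analysed receptors (linear axes from 0) in 6 Ad-GFP and 6 Ad-h-NR4A2 samples; points are samples, grey lines join same-numbered samples, and bars are means ± SD (n = 6). Spp1 lies between 3.32 and 13.7 FPKM with Ad-GFP and between 283 and 1143 with Ad-h-NR4A2, Cd44 and Itga5 also separate the groups, and the other receptors overlap.

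Spp1 varied several-fold within each group, and it was asked whether this spread followed other genes. For each group, log2(FPKM + 0.1) of Spp1 was compared with that of Nr4a2, of Cd44, and of the summed macrophage markers, 6 relations in all. In the Ad-h-NR4A2 samples, Spp1 and Nr4a2 had a Pearson r of 0.447 (exact permutation test, two-sided, p = 0.424 and 0.955 adjusted) and a Spearman rho of 0.371 (p = 0.497 and 0.919 adjusted, exact as well), and r = 0.375 without the 2 samples farthest from the median of Nr4a2. In the Ad-GFP samples, Spp1 and Cd44 had r = 0.493 (exact permutation p = 0.338, adjusted 0.955) and rho = 0.371 (exact permutation p = 0.497, adjusted 0.919), and r = -0.50 without the 2 farthest samples. The other 4 relations had r from -0.35 to 0.239, the highest being Spp1 with Nr4a2 in Ad-GFP samples, where r was 0.763 without the 2 farthest samples. None of the 6 passed, and 6 samples per relation allow no close estimate.

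The receptors were compared between groups on the log2(FPKM + 0.1) scale by limma over all 10950 genes above 0 in every sample, two-sided and with Benjamini-Hochberg adjustment. A gene passed the test at an adjusted p below 0.05, and was called differentially expressed if, in addition, the ratio of group mean FPKM was at least 1.5 in either direction. Of the 5 receptors tested, 2 were called (1 up and 1 down), beside 15.2% of all genes tested (7.94% up and 7.24% down), and 3 passed the test regardless of ratio, beside 40.9%. The median log2 difference of the 5 was -0.16, and that of all genes tested was -0.02. With same-numbered samples as replicate blocks, all 5 receptors passed the test, beside 59.4% of all genes in that fit, and the same 2 were called, beside 16.7%.

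Cd44 (chromosome 3, 99339457 to 99426032), the hyaluronan and osteopontin receptor that is no integrin, was the receptor that rose. FPKM in Ad-GFP samples 24 to 29 was 10.4, 9.49, 9.81, 8.95, 12.1, and 13.1. In the Ad-h-NR4A2 samples it was 16.3, 14.2, 13.7, 16.4, 15.9, and 23.2. The groups did not overlap, although the highest Ad-GFP sample, 29, came close to the lowest Ad-h-NR4A2 sample, 26, and Cd44 was higher with Ad-h-NR4A2 in 6 of 6 pairs. Separation of this kind was found for 21.5% of all genes tested. The means were 10.6 ± 1.61 and 16.6 ± 3.40 FPKM (SD, n = 6), with a log2 difference of 0.63 (SE 0.13, adjusted p = 0.00130 by limma). An exact permutation test over all 924 splits, which takes no account of the pairs, gave p = 0.00216, which is as low as 6 against 6 samples can go. Permutation tests of the group difference of the other receptors were unpaired as well. The ratio of means, 1.56, lay close to the limit of 1.5. Without Ad-h-NR4A2 sample 29 it was 1.44 and Cd44 was no longer called, with an adjusted p of 0.00124 by limma.

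Itga5 (chromosome 7, 142750121 to 142773323), the α-chain of the fibronectin receptor α5β1, was the receptor that fell. FPKM in Ad-GFP samples 24 to 29 was 13.4, 12.4, 14.2, 14.3, 13.3, and 14.9. In the Ad-h-NR4A2 samples it was 8.67, 6.45, 7.17, 7.47, 7.07, and 6.83. All 6 values with Ad-h-NR4A2 lay below all 6 with Ad-GFP, with little spread in either group. The means were 13.8 ± 0.915 and 7.27 ± 0.764 FPKM (SD, n = 6), a ratio of 0.528 and a log2 difference of -0.91 (SE 0.07, adjusted p = 5.79e-07 by limma; exact permutation p = 0.00216). Itga5 stayed called in every fit that left out 1 sample, with log2 differences of -0.97 to -0.88.

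Itgb1 (chromosome 19, 72324612 to 72372325) encodes the β1-chain that pairs with αv, α4, α5, and α9, and had the highest level of the receptors. It was 209, 241, 227, 227, 234, and 245 FPKM in Ad-GFP samples 24 to 29 and 191, 220, 203, 216, 207, and 226 in the Ad-h-NR4A2 samples. The groups overlapped, but the Ad-h-NR4A2 sample was the lower of each pair. The means were 230 ± 12.8 and 211 ± 12.7 FPKM (SD, n = 6), with a log2 difference of -0.13 (SE 0.05, adjusted p = 0.0488 by limma; exact permutation p = 0.0238). This fall was small and near the threshold, since 9 of the 12 fits without 1 sample had an adjusted p of at least 0.05, at most 0.100 (limma). Under the replicate block, it was 8.34e-04 (adjusted, limma).

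Itgb5 and Itgb3 encode the β-chains of the vitronectin receptors αvβ5 and αvβ3. Itgb5 (chromosome 11, 73146146 to 73261215) had 19.2, 19.3, 23.97, 23.9, 20.7, and 27.1 FPKM in Ad-GFP samples 24 to 29 and 18.7, 17.9, 20.3, 21.1, 20.1, and 21.1 in the Ad-h-NR4A2 samples. It was lower with Ad-h-NR4A2 in 6 of 6 pairs, and the groups overlapped. The means were 22.4 ± 3.14 and 19.9 ± 1.29 FPKM (SD, n = 6), with a log2 difference of -0.16 (SE 0.08) that did not pass unpaired (adjusted p = 0.139 by limma; exact permutation p = 0.102) and passed with the replicate block (adjusted p = 0.0135 by limma).

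Itgb3 (chromosome 10, 92424548 to 92538859), whose product is the best known osteopontin receptor chain of osteoclasts and platelets, was near the limit of detection. It had 0.453, 0.620, 0.532, 0.262, 0.365, and 0.534 FPKM in Ad-GFP samples 24 to 29 and 0.205, 0.527, 0.274, 0.305, 0.215, and 0.482 in the Ad-h-NR4A2 samples, from 12 to 27 and 8 to 26 fragments. The groups overlapped, and 5 of 6 pairs were lower with Ad-h-NR4A2. The log2 difference was -0.39 (SE 0.22), with an adjusted p of 0.173 by limma (exact permutation p = 0.128) and of 0.0487 with the replicate block.

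Itga4 (chromosome 3, 72754339 to 72825872), the α-chain of the leukocyte receptor α4β1, rested on 17 fragments over the Ad-GFP samples (1 to 5 in each) and on 7 over the Ad-h-NR4A2 samples (0 to 4 in each). A difference was not detectable at this depth (exact permutation p = 0.0931).

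**Figure D2:**
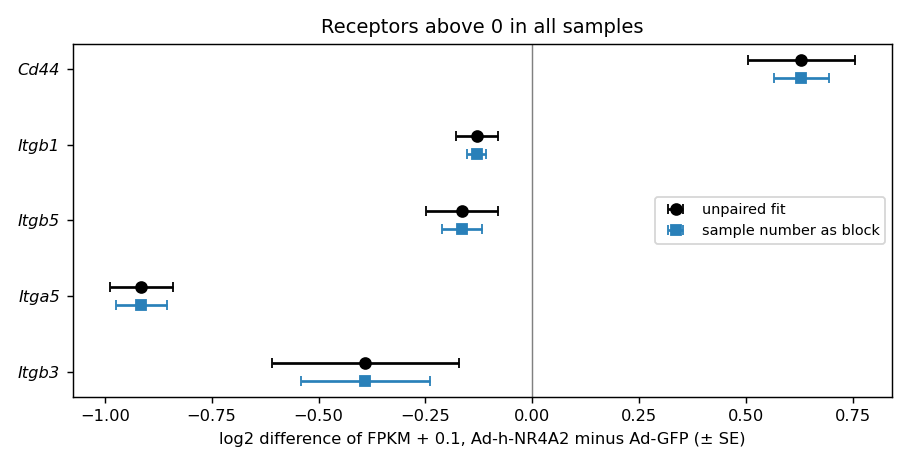
Log2 difference of FPKM + 0.1 between Ad-h-NR4A2 and Ad-GFP for the 5 receptors above 0 in all samples; points are estimates and bars ± SE, black from the unpaired fit and blue with the sample number as a block. Cd44 lies at 0.63 and Itga5 at -0.91, while Itgb1, Itgb5, and Itgb3 lie between -0.39 and -0.13 with smaller errors under the block.

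Within each group, the levels of the receptors were ordered and neighbors in the order were compared sample by sample with a two-sided exact sign-flip test. The order was taken from the same samples, so the test is no separate check of it. It describes how steadily neighbors differed, and for neighbors many-fold apart its outcome was fixed in advance. In Ad-GFP samples the order was Itgb1, Itgb5, Itga5, Cd44, Itgb3, and Itga4, and each neighbor differed in 6 of 6 samples (exact permutation p = 0.03125, the smallest that 6 samples allow, and the same after adjustment over 5 comparisons). In Ad-h-NR4A2 samples Cd44 stood above Itga5 in all 6 samples, by a mean FPKM ratio of 2.28 (adjusted exact permutation p = 0.0391). There, Itgb5 (19.9 FPKM) and Cd44 (16.6 FPKM) were not separated by the test, with Itgb5 higher in 5 of 6 samples (mean log2 difference 0.27 ± 0.23, SD, n = 6; exact permutation p = 0.0625). The mean level of Spp1 in Ad-GFP samples (7.23 FPKM) was below those of Cd44 and Itga5, and in Ad-h-NR4A2 samples its lowest value (283 FPKM) was above the highest of Itgb1 (226 FPKM).

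The remaining integrin subunits were examined as a list of 20 genes, of which 16 were analysed and 11 tested. Itgb8 and Itgb6 rose, Itgal, Itga1, and Itgb4 fell, and 6 were not called (median log2 difference 0.06). These 5 calls among 11 stand beside 15.2% of all genes tested (7.94% up and 7.24% down). Itgb8, whose product pairs with αv and activates latent TGF-β, was the most abundant of these 5. It had 6.18, 6.42, 10.2, 12.4, 6.03, and 12.7 FPKM in Ad-GFP samples 24 to 29 and 11.8, 12.1, 23.8, 23.4, 12.4, and 28.2 in the Ad-h-NR4A2 samples. The groups overlapped, since samples 26, 27, and 29 were the higher ones in each, and every pair was higher with Ad-h-NR4A2 (log2 difference 1.02, SE 0.28, adjusted p = 0.00931 by limma). Itgb6, another αv partner, rose from 0.0709 to 0.207 mean FPKM on only 1 to 11 and 7 to 21 fragments (log2 difference 0.82).

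Of the subunits that fell, Itgal, the α-chain of the leukocyte integrin LFA-1, went from 1.09 ± 0.382 to 0.353 ± 0.117 FPKM (SD, n = 6), with no overlap and a log2 difference of -1.36 (SE 0.23, adjusted p = 3.83e-04 by limma). Itga1, the α-chain of a collagen and laminin receptor, went from 4.65 ± 0.618 to 2.95 ± 0.307 FPKM (SD, n = 6), a log2 difference of -0.63 (SE 0.10). Itgb4, the β-chain of the hemidesmosome integrin, was called at 0.241 and 0.138 mean FPKM, with an adjusted p (limma) of 0.0368 that rose to between 0.0578 and 0.0726 in 8 of the 12 fits without 1 sample, those without Ad-GFP 24, 25, 26, and 29 or Ad-h-NR4A2 24, 26, 27, and 29. Itga7, the laminin receptor chain of striated muscle, stood at the level of Itgb1, with 223 ± 40.6 and 292 ± 51.0 FPKM (SD, n = 6). It passed the test (adjusted p = 0.0270 by limma) at a ratio of 1.31, below the limit for a call. Itgb2, the partner of Itgal, was near 0 in both groups (0.0381 and 0.0364 mean FPKM). Itgbl1, a gene of a secreted protein with repeats like those of β-integrins, was higher with Ad-h-NR4A2 in 6 of 6 pairs at 2.93 ± 2.45 and 5.16 ± 3.49 FPKM (SD, n = 6), and was called only with the replicate block (adjusted p = 3.17e-04 by limma, against 0.340 unpaired).

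**Figure D3:**
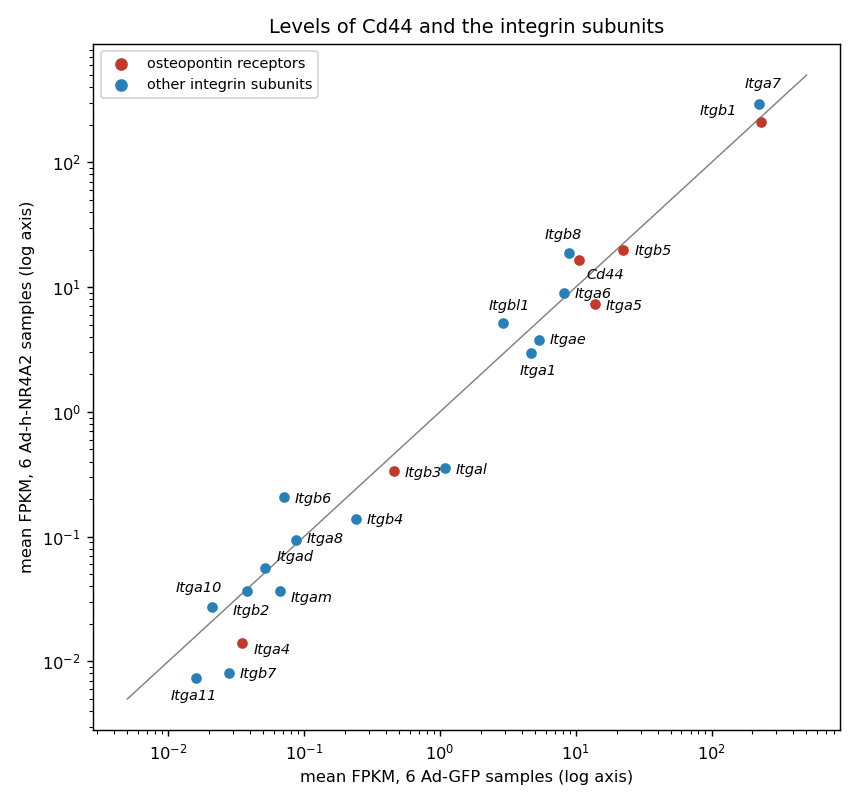
Mean FPKM of Cd44 and the integrin subunits in 6 Ad-GFP samples (x, log axis) and 6 Ad-h-NR4A2 samples (y, log axis), with the line of equal levels; red points are osteopontin receptors and blue points other subunits. Itgb1 and Itga7 lie above 200 FPKM in both groups, Itgb8 and Cd44 above the line, and Itga5, Itga1, and Itgal below it.

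Spp1 lies in a cluster with 4 genes of its family, which encode acidic phosphoproteins of bone and teeth. Ibsp, the gene of bone sialoprotein 130 kb from Spp1, was listed at 0 in all 6 Ad-GFP samples and at 0.0261, 0.0826, 0.0698, 0.207, 0.0874, and 0.221 FPKM in Ad-h-NR4A2 samples 24 to 29. This is a detection in 6 of 6 samples of 1 group and in no sample of the other, on 29 fragments in all. Against 3 fragments over the Ad-GFP group, which a count of 0 allows, its pooled level was 9.63-fold higher. Counting error of the 29 fragments and spread between samples are not in this ratio, so it sets no lower limit. Ibsp was removed by the filter on zeros and thus not tested in the main comparison. Dmp1, Dspp, and Mepe had at most 3 fragments in any sample.

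Of all 17 genes analysed whose locus comes within 500 kb of Spp1, 10 were tested and 0 were called, beside 15.2% of all genes tested. Ibsp is not among the 10, since the filter on zeros removed it. Without that filter it was called up (log2 difference 1.03, adjusted p = 0.00130 by limma), against a group at 0 whose spread the pseudocount sets. Log2 differences of the 10 tested genes lay between -0.20 and 0.47, compared with 6.50 for Spp1, which was chosen for its rise. Pkd2, which encodes the cation channel polycystin 2 and is the closest at 28.5 kb, had a mean of 8.96 FPKM in both groups and a log2 difference of 0.00. Among the tested neighbors, 6 belong to 1 merged locus that holds the Abcg3 family, whose similar sequences may share fragments. Only the span of this locus is given (chromosome 14, 5556777 to 6520637), and its near edge is 132 kb from Spp1. Positions of the 6 genes within it are not known, so some may lie farther than 500 kb away. Abcg3l2, 1 of the 6, rested on 5 fragments over the Ad-GFP samples and 2 over the Ad-h-NR4A2 samples.

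**Figure D4:**
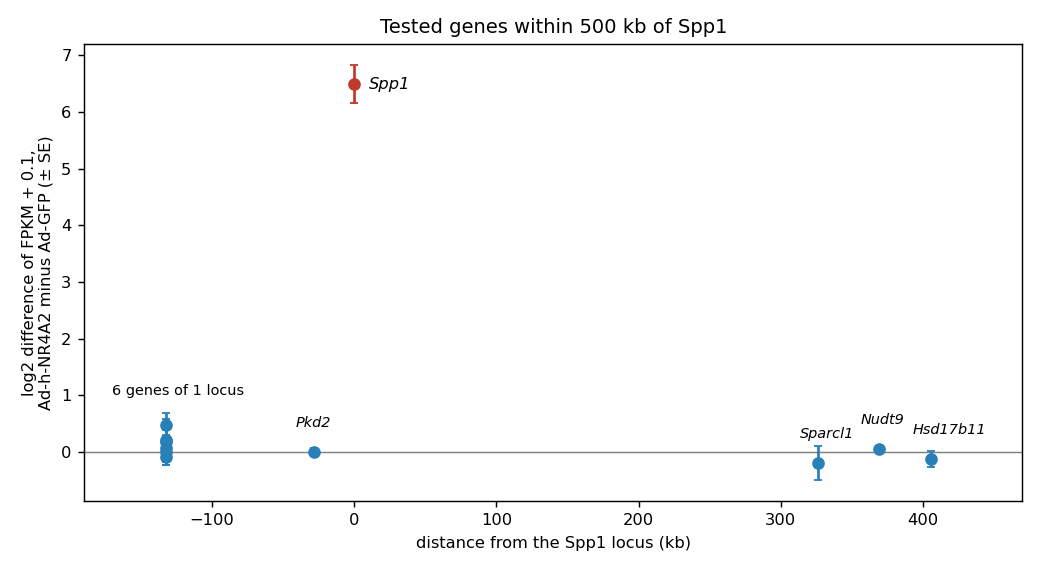
Log2 difference of FPKM + 0.1 (± SE) between Ad-h-NR4A2 and Ad-GFP for the 10 tested genes with a locus within 500 kb of Spp1. The x axis is the distance in kb from the Spp1 locus to the nearest edge of each locus. Spp1 (red) stands at 6.50 and the neighbors (blue) between -0.20 and 0.47. Ibsp was not tested and is not shown.

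Osteopontin is cut by thrombin and matrix metalloproteinases, crosslinked by transglutaminases, and phosphorylated by FAM20C. Of 18 genes of such enzymes and of the thrombin receptor, 13 were tested and 2 rose, with none called down (median log2 difference -0.12). The 2 calls among 13 stand beside 15.2% of all genes tested that were called in either direction. Tgm2, the tissue transglutaminase, had 39.3, 53.6, 56.1, 61.9, 45.3, and 82.5 FPKM in Ad-GFP samples 24 to 29 and 154, 231, 261, 279, 94.2, and 351 in the Ad-h-NR4A2 samples. The groups did not overlap, and sample 29 was highest in both (log2 difference 1.93, SE 0.28, adjusted p = 9.39e-05 by limma). F2r, the thrombin receptor PAR1, rose from 1.05 ± 0.272 to 1.80 ± 0.543 FPKM (SD, n = 6; log2 difference 0.69, adjusted p = 0.0228 by limma). Its adjusted p was 0.0501 to 0.0538 in the fits without Ad-GFP 24 or 28 or without Ad-h-NR4A2 25, 26, or 27. Plau, the urokinase gene, had 0.392 and 0.654 mean FPKM and was not called unpaired (adjusted p = 0.0572 by limma). It was called with the replicate block (0.00758), with a pseudocount of 1 (0.0457), after quantile normalization (0.0487), and without Ad-GFP 29 (0.0237) or Ad-h-NR4A2 24 (0.0292). Acp5, a phosphatase of osteopontin, was called down with transcripts summed (adjusted p = 0.00361 by limma) and without Ad-GFP 27 (0.00416), against 0.112 in the main comparison. Fam20c, at 8.21 and 7.49 mean FPKM, and the cathepsin genes Ctsb and Ctsd, each above 200 FPKM in all samples, did not pass unpaired. Thrombin itself (F2) had at most 2 fragments in any sample.

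Without the filter on zeros, 2 metalloproteinase genes were also called, on very few fragments. Mmp7, listed at 0 in all Ad-GFP samples and in Ad-h-NR4A2 samples 24 and 26, had 7 fragments over the Ad-h-NR4A2 samples. Its pooled level was 2.32 times that of the 3 fragments that a count of 0 allows over the Ad-GFP group. Counting error of the 7 fragments is not in this ratio, so it sets no lower limit. Mmp12 had 1 to 4 fragments in each Ad-GFP sample and 1 fragment in 1 Ad-h-NR4A2 sample.

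Integrins act through a cytoplasmic complex that links them to actin and to kinases. Of 30 genes of this complex, 28 were tested and 16 passed the test, 5 higher and 11 lower with Ad-h-NR4A2 (median log2 difference -0.09), beside 40.9% of all genes tested (19.3% higher and 21.7% lower). With the limit on the ratio, Actn1, Bcar1, and Src rose and Lims1 fell, 4 of 28 beside 15.2% of all genes. Actn1, the nonmuscle α-actinin, went from 4.37 ± 0.594 to 7.58 ± 2.18 FPKM (SD, n = 6; log2 difference 0.74, adjusted p = 0.00253 by limma). Bcar1, the adaptor p130Cas, and the kinase Src had log2 differences of 0.62 and 0.63, at 18.5 and 28.8 and at 0.893 and 1.5 mean FPKM. The call of Bcar1 was lost without Ad-h-NR4A2 sample 29, at a ratio of 1.48.

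Lims1, which encodes PINCH1, the partner of integrin-linked kinase, had 57.2 to 65.9 FPKM with Ad-GFP and 36.4 to 43.5 with Ad-h-NR4A2, and a log2 difference of -0.65 (SE 0.05, adjusted p = 5.62e-07 by limma). Its paralog Lims2 and the PINCH-binding Rsu1 passed the test in the other direction, at ratios of 1.23 and 1.37. The focal adhesion kinase Ptk2 passed at a ratio of 0.779 and the tensin Tns1 at 0.702, both below all Ad-GFP samples in each Ad-h-NR4A2 sample. The talin Tln1, the kindlin Fermt2, and the kinase Ilk did not pass unpaired.

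A list around Cd44 held 16 genes, among them those of hyaluronan synthesis and degradation and of other proteins that bind hyaluronan. The rest encode proteins that link CD44 to actin and the proteases that shed it. Of 14 tested, Hmmr and Hyal1 rose and Adam10 and Ank3 fell (median log2 difference 0.03). The 4 calls among 14 stand beside 15.2% of all genes tested that were called in either direction. Hmmr, which encodes a hyaluronan-binding protein that is also part of the mitotic spindle, had 2.81, 5.22, 4.04, 7.02, 3.21, and 8.33 FPKM in Ad-GFP samples 24 to 29 and 89.3, 149, 157, 183, 110, and 159 in the Ad-h-NR4A2 samples. These are 131 to 493 and 4074 to 8578 fragments, with no overlap and a ratio of means of 27.7 (log2 difference 4.83, SE 0.26, adjusted p = 1.32e-08 by limma). Hyal1, a lysosomal hyaluronidase, rose from 10.7 ± 2.06 to 22.9 ± 2.57 FPKM (SD, n = 6). Adam10, a sheddase of CD44, fell from 18.8 ± 1.67 to 11.3 ± 0.851 FPKM, and Ank3, which encodes ankyrin G, from 11.1 ± 1.5 to 6.49 ± 0.684 FPKM (SD, n = 6). The cytoskeletal linker Msn passed at a ratio of 1.35, and Ezr, Rdx, and Nf2 did not pass. All 3 hyaluronan synthase genes were near 0 (at most 0.102 mean FPKM).

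Of 20 genes of other ligands of the osteopontin-binding integrins, 17 were analysed and 15 tested. Cyr61, Nov, and Vcam1 rose and Emilin1 fell (median log2 difference -0.07). The 4 calls among 15 stand beside 15.2% of all genes tested that were called in either direction. Cyr61, a secreted CCN protein bound by αv and other integrins, had 8.25, 7.87, 8.20, 8.25, 7.56, and 11.7 FPKM in Ad-GFP samples 24 to 29 and 112, 142, 154, 151, 113, and 137 in the Ad-h-NR4A2 samples. The ratio of means was 15.6 (log2 difference 3.95, SE 0.11, adjusted p = 3.35e-11 by limma), with no overlap. Nov, of the same CCN family, had a ratio of means of 15.03 at far lower levels, 0.0939 and 1.41 FPKM, or 1 to 7 and 21 to 59 fragments. Vcam1, the ligand of α4β1, rose from 0.726 ± 0.185 to 2.61 ± 0.498 FPKM (SD, n = 6; log2 difference 1.72).

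Emilin1, an elastic fiber protein bound by α4β1, fell from 66.2 ± 14.9 to 22.6 ± 4.69 FPKM (SD, n = 6; log2 difference -1.54, adjusted p = 9.87e-06 by limma). Ctgf, the third CCN gene listed, was lower with Ad-h-NR4A2 in 6 of 6 pairs, at 10.3 ± 7.44 and 4.49 ± 2.52 FPKM (SD, n = 6). It spread from 3.91 to 23.9 FPKM among Ad-GFP samples and was not called unpaired (adjusted p = 0.0622 by limma). It was called with the replicate block (5.10e-05), without Ad-GFP 24 (0.0285), and without Ad-h-NR4A2 29 (0.0268). Sparc, which encodes another matricellular glycoprotein, had an adjusted p (limma) of 0.0889 unpaired and was called with the block (1.26e-04) and without Ad-GFP 24 (0.0196). The genes of fibronectin and vitronectin were little expressed, with mean FPKM of 1.92 and 1.52 for Fn1 and at most 0.0604 for Vtn. Mfge8, another listed ligand gene, was abundant, at a mean of 166 FPKM in control ARVMs and 157 FPKM under NR4A2 overexpression. It did not pass the test unpaired (adjusted p = 0.267 by limma).

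**Figure D5:**
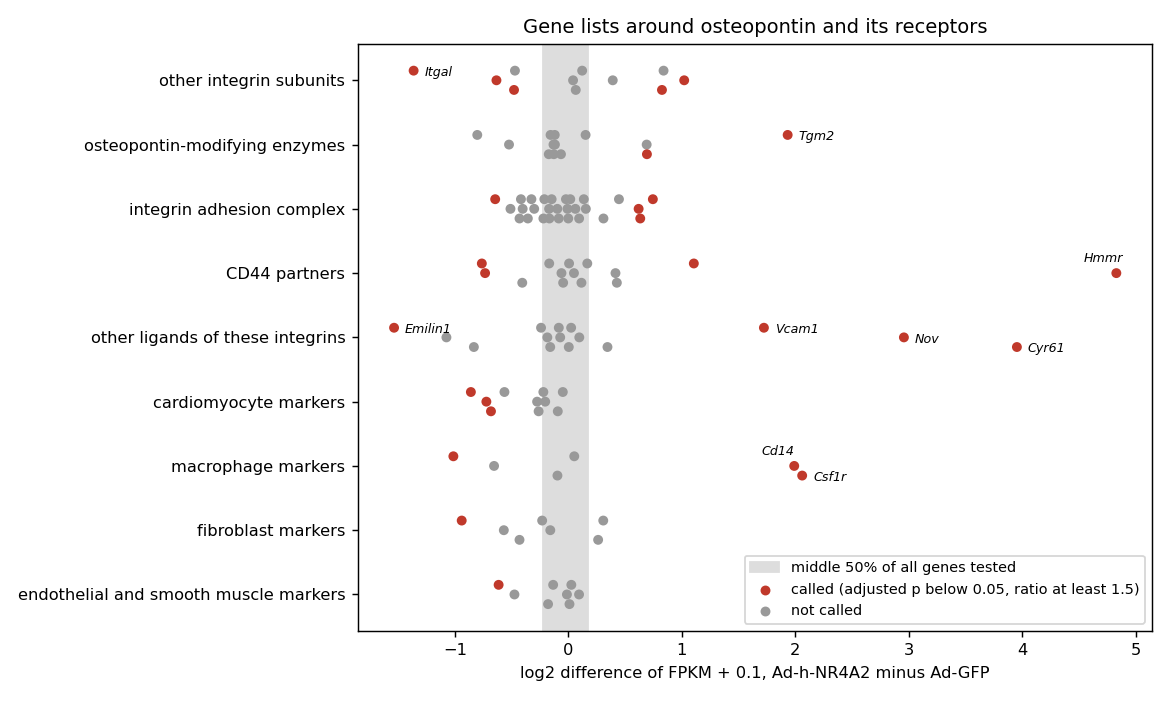
Log2 difference of FPKM + 0.1 between Ad-h-NR4A2 and Ad-GFP (x) for every tested gene of 9 lists (rows); red points were called, grey points were not, and the grey band is the middle 50% of all genes tested, -0.22 to 0.17. Hmmr, Cyr61, Nov, Tgm2, Vcam1, Csf1r, and Cd14 stand at the right and Emilin1 and Itgal at the left.

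Other cells that make osteopontin were examined by their markers. Of 12 macrophage markers, 11 were analysed and 6 tested, of which 2 rose, 1 fell, and 3 were not called. Of all genes tested, 15.2% were called (7.94% up and 7.24% down). Csf1r, the receptor of macrophage colony-stimulating factor, had 5.48 to 17.1 FPKM with Ad-GFP and 36.8 to 43.4 with Ad-h-NR4A2 (log2 difference 2.06, adjusted p = 2.15e-06 by limma). Cd14, the lipopolysaccharide coreceptor, rose from 0.222 ± 0.150 to 1.19 ± 0.587 FPKM (SD, n = 6), and Gpnmb fell from 22.3 ± 10.7 to 10.6 ± 3.94 FPKM (SD, n = 6). The other 8 analysed markers had mean FPKM from 0.0193 to 1.69 in Ad-GFP samples. Of these, 3 did not pass the test, and 5, listed at 0 in some sample, were not tested. Lyz2 had 1.69 and 1.59 mean FPKM, Mrc1 0.395 and 0.369, Ptprc had 0.0258 and 0.0218 mean FPKM, C1qa 0.145 and 0.183, Cd163 0.0193 and 0.0232, Itgam 0.0664 and 0.0366, and Cd68, at 0.463 ± 0.194 and 0.482 ± 0.210 FPKM (SD, n = 6), did not pass (log2 difference 0.05). The summed FPKM of the list was 17.9 to 60.3 with Ad-GFP and 46.0 to 62.3 with Ad-h-NR4A2. Csf1r and Gpnmb, which moved in opposite directions, made up 83.9% to 97.97% and 87.4% to 97.7% of this sum. Within the Ad-h-NR4A2 group, this sum and Spp1 had r = -0.35 (exact permutation p = 0.492, adjusted 0.955) and rho = -0.14 (exact permutation p = 0.803, adjusted 0.919), and r = 0.0996 without 2 samples.

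Of 8 fibroblast markers, 7 were tested and Col3a1 was called down (log2 difference -0.94, adjusted p = 0.0239 by limma), a call lost without Ad-GFP 25, 26, or 29 (adjusted p 0.0502 to 0.0556). This 1 call among 7 stands beside 7.24% of all genes tested that were called down. Col1a1 was called down as well with the replicate block (adjusted p = 0.00616 by limma), after quantile normalization (0.0378), and without Ad-GFP 27 (0.0462) or Ad-h-NR4A2 25 (0.0362). The summed FPKM of the fibroblast list was 9.14 to 30.8 with Ad-GFP and 5.96 to 27.7 with Ad-h-NR4A2, and Col1a2 was listed at 0 in all 12 samples. Of 8 tested endothelial and smooth muscle markers, Myh11 was called down (log2 difference -0.61), beside 7.24% of all genes tested. The summed FPKM of this list was 15.5 to 29.3 with Ad-GFP and 11.2 to 27.4 with Ad-h-NR4A2. The call of Myh11 was lost without Ad-GFP 28, Ad-h-NR4A2 27, or Ad-h-NR4A2 29 (ratios 0.671 to 0.673). The part of these cell types in the levels of Spp1 and its receptors was not tested.

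Genes whose pattern was most like that of Spp1 were sought among 8977 others with a mean of at least 1 FPKM, by Pearson's r of log2(FPKM + 0.1). Over the 12 samples the highest were Kif22 (0.997), a chromosome-binding kinesin, Cotl1 (0.995), an actin-binding protein, Paqr9 (0.994), Fhl1 (0.993), a LIM domain protein of striated muscle, and Cd55 (0.993), an inhibitor of complement. These values mostly describe the group difference, which all 12 points share and by which Spp1 was chosen. Kif22 and Cotl1 had mean FPKM of 0.441 and 0.992 with Ad-GFP and of 4.25 and 4.31 with Ad-h-NR4A2. Both thus met the limit of 1 FPKM only through the Ad-h-NR4A2 group. After each group mean was subtracted, Kif22 was again highest (0.905), followed by Ddhd1 (0.899), Ppap2c (0.895), Sfxn1 (0.887), and Tax1bp3 (0.883). Of the receptors, Itga5 had r = -0.96 and Cd44 r = 0.823 over the 12 samples. With group means subtracted, Cd44 had 0.155 and Itga5 -0.16, while Itgb1 had 0.765 and Itgb5 0.618. These are descriptions over 12 samples of 1 sequencing run, with no test. The genes most like Spp1 are the highest of 8977. Same-numbered samples deviated together over genes at large, so the 12 values are not independent after the group means are subtracted.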

How the data were processed

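RNA of 12 ARVM samples was sequenced by the authors as stranded paired-end libraries in 1 run, aligned with STAR to Rn5, and quantified with Cufflinks. The deposited values are FPKM of 18752 RefSeq transcripts, normalized by the authors to transcript length and mapped fragments, with the transcript length (another deposited value) beside them. Fragment numbers were recovered from low FPKM of transcripts of at least 800 nucleotides, of which 99.36% to 99.88% per sample came out whole within 0.05; they are given for genes with 1 transcript and cover counting error only. The authors' filters and q values were not used.

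For each gene the transcript of highest mean FPKM was used. The 10950 genes above 0 in every sample were compared with limma 3.58.1 (lmFit, eBayes with trend) in R 4.3.3 on log2(FPKM + 0.1). This main fit was unpaired, with Benjamini-Hochberg adjustment over all 10950 genes. The study's t-tests were unpaired, while its RNA sequencing comparison came from a Cufflinks workflow. The pseudocount understates changes of low genes. The comparison was tested on simulated data. Exact permutation tests, tables, and plots used Python 3.11.15, SciPy 1.17.1, NumPy 2.4.6, pandas 2.3.3, and Matplotlib 3.10.9. Groups and numbers come from the labels. Same-numbered samples deviated together from their group means (r over genes 0.347 to 0.623 in the 6 pairs, against at most 0.189 across different numbers). For all 6 Ad-GFP samples, the highest r was with the Ad-h-NR4A2 sample of the same number. The study describes experiments on ARVMs of different rats, and the fit was repeated with the number as replicate block. Also tried were limma without trend, quantile normalization, the TPM scale, pseudocounts of 0.01 and 1, no filter on zeros, a mean of at least 1 FPKM, transcripts summed, other limits on the ratio, and each sample left out in turn.

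The members and gene lists were chosen with earlier results of these data known. Named genes are the members, Nr4a2, called genes of each list, marker genes, genes within 500 kb of Spp1, and the genes most like Spp1; other genes named from the lists were chosen after their values were seen. Listed genes that were not analysed here are Edil3, Emr1, Itga2, Itga2b, Itga3, Itga9, Itgav, Itgax, Nid1, Npnt, and Tln2. Promoters were read from RefSeq (GRCr8); positions of transcripts are those of the deposited tables (Rn5).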

Additional observations from a re-analysis of the deposited data

Results flagged for a closer look

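Of 72 groups of 6 values examined, those of the members, of Nr4a2, of Ibsp, and of the called list genes, 5 held a sample far from the other 5, where chance gives about 1 in 20. Cd44 had 23.2 FPKM in Ad-h-NR4A2 sample 29, compared with 13.7 to 16.4 in the others, and its call rested on this sample. Itga4 had 0.0513 FPKM in Ad-h-NR4A2 sample 27, or 4 fragments, compared with 0 to 0.0122. Cyr61 had 11.7 FPKM in Ad-GFP sample 29, compared with 7.56 to 8.25. In Ad-h-NR4A2 sample 24, Adam10 had 12.9 FPKM (10.5 to 11.3 in the others) and Pln, the gene of phospholamban, had 1249 FPKM (659 to 876 in the others). Cyr61, Adam10, and Pln stayed called without these samples.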

How the results depend on the processing

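Itga5, Itgb8, Tgm2, Hmmr, Cyr61, and Csf1r kept their calls when any 1 sample was left out, and the 29 called genes of the lists kept their direction after quantile normalization or on the TPM scale. No result reversed. Leaving out 1 sample gave 1 to 2 called receptors, 2 to 3 receptors past the adjusted p, and called genes of 4 to 6 for the other integrin subunits, 1 to 3 for the enzymes, 0 to 2 for the fibroblast markers, and 0 to 1 for the endothelial and smooth muscle markers. With the replicate block 5 receptors in place of 3 passed the adjusted p and 2 in place of 1 fibroblast markers were called, as also after quantile normalization (2); other calls that the block or a left-out sample added are given with their genes, except Itgae, called without Ad-GFP 27, and Myh6, called without Ad-GFP 28 or Ad-h-NR4A2 26, 28, or 29. A ratio of at least 2 left 0 receptors, 3 other integrin subunits, 1 enzyme, 0 adhesion complex genes, 2 CD44 partners, 0 myocyte markers, and 0 endothelial and smooth muscle markers. Without a limit, 16 adhesion complex genes, 7 CD44 partners, and 7 myocyte markers were called, beside 40.9% of all genes tested. Without the filter on zeros, 1 gene of the osteopontin family (Ibsp) and 4 enzymes were called, where Ibsp and Mmp7 were compared with a group at 0 whose spread the pseudocount sets, and a mean of at least 1 FPKM left 2 other integrin subunits, since Itgal, Itgb4, and Itgb6 were then not tested. Itgb1 had an adjusted p of 0.0795 without trend and 0.0586 without the filter (limma). Depth limits Itga4, Itgb3, Ibsp, Itgb6, Mmp7, and Mmp12, which rest on few fragments per sample. It also limits Acp5, which was low in both groups, and Nov and Cd14, which were low with Ad-GFP.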
